A study of Mus musculus with 12 samples.

Results

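The amino acid transporters examined here are 9 mouse genes, Slc1a3, Slc1a4, Slc1a5, Slc1a6, Slc7a2, Slc7a6, Slc38a1, Slc38a4 and Slc36a1, out of 55487 genes in the count table. They were taken by symbol as carriers of glutamate, of neutral and of cationic amino acids. They were selected on the difference in their counts between STEM and horse serum, which was known when the list was drawn up. Their values in that comparison are therefore given as a description and not as a test. The working name of the set places the genes outside the control of ATF4, the transcription factor that amino acid shortage switches on. That name is not used here, because Slc1a4 and Slc1a5 are described in other cells as ATF4-responsive and no binding of ATF4 was measured.

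The cells were C2C12 myotubes, which form when this line of mouse myoblasts fuses in low serum. All cells were differentiated for 5 days in DMEM with 2% horse serum and penicillin/streptomycin. For the next 24 h, the cells of 6 libraries were given 4% horse serum (libraries 1 to 6) and those of 6 were given 4% STEM (libraries 7 to 12), the factors that human embryonic stem cells release as they begin to differentiate, free of cells and in a solution that itself holds amino acids, proteins and vitamins. STEM replaced the serum, so the addition of the one and the withdrawal of the other cannot be told apart. The labels do not say that the libraries came from separate cultures, so p-values measure only the spread between these libraries, which may be technical.

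The depth of the horse serum libraries ran from 13285472 to 18254882 counts and that of the STEM libraries from 14909485 to 24536264. Values are CPM, which are counts scaled to TMM-normalized library totals, unless stated otherwise. The summed level of 14 myotube markers, from myosin heavy chains to myogenin, was between 14539 and 15750 CPM in horse serum libraries 1 to 5 and between 11916 and 15148 CPM with STEM. Horse serum library 6 stood apart at 7184 CPM for these markers. Single myotube markers moved in both directions, which the sum does not show. Of the 14, 4 were called by edgeR with all libraries (2 higher, 2 lower), beside 36.4% of all tested genes. Without library 6, 11 were called (2 higher, 9 lower), beside 50.8% of all tested genes. In library 6 the 5 proliferation markers summed to 1061 CPM against 627 to 948 CPM in the other horse serum libraries. With STEM these 5 summed to between 469 and 578 CPM, below every horse serum library, and 4 of the 5 were called lower. The 4 markers of undifferentiated myoblasts summed to 148 CPM in library 6, to between 160 and 184 CPM in the other horse serum libraries and to between 106 and 130 CPM with STEM, where 3 of the 4 were called lower. These markers moved with the treatment, and their part in the values of the transporters was not tested. For fold changes of the 9 transporters and for counts of called genes, results that rest on library 6 are given with and without it. For other single genes, some values are given with all libraries only. Markers of astrocytes and glia, the cells best known for Slc1a3, summed to at most 6.11 CPM in any library, with Aqp4 and Sox10 at no more than 2 counts and Gfap at no more than 9 in any library. Of 4 hepatocyte markers, Alb, Ttr and Serpina1a had 0 counts in every library.

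Amino acid transporters of the plasma membrane differ in what they carry and in what drives them. SLC1 carriers are driven by the sodium gradient and divide into glutamate carriers, such as Slc1a3 and Slc1a6, and exchangers of neutral amino acids, such as Slc1a4 and Slc1a5. SLC7 holds cationic carriers that act alone, such as Slc7a2, and light chains that need the heavy chain Slc3a2, such as Slc7a6. SLC38 carriers take up glutamine and other small neutral amino acids with sodium, and SLC36 carriers move small amino acids together with protons, at lysosomes among other membranes. Supply of glutamine, leucine and arginine feeds protein synthesis and the growth kinase mTORC1 in muscle cells.

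Because of the ATF4 name, the promoters were searched for TGATGNAA, a core of the response element that ATF4 binds with C/EBP factors, on both strands. RefSeq promoters (GRCm38.p6, 250 bases before to 50 after the start) were at hand for 6 of the 9 genes. Slc1a5, Slc7a2 and Slc38a1 had none and were not searched. Of the 6 searched, Slc1a4 alone held a match, lying across its start. Among all genes with a promoter 4.51% held the motif, and in a list of ATF4 response genes 11 of 31 did. The match of Slc1a4 is shown beside 4 others from that list so that the shared letters can be read, each on the strand of its gene with the motif in capitals. On that strand the element reads as TGATGNAA in Asns and as its reverse complement in the others.
Slc1a4, chr11:20332699-20332728, minus strand: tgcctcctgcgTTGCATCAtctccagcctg
Slc7a11, chr3:50443642-50443671, minus strand: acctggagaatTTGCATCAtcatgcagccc
Atf3, chr1:191183425-191183454, minus strand: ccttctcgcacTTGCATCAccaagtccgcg
Chac1, chr2:119351038-119351067, plus strand: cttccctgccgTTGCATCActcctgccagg
Asns, chr6:7693214-7693243, minus strand: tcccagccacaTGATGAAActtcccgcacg
The search fixes every capital letter but the N, so the agreement of the others was set in advance. At the N, Slc1a4 has the same letter as Slc7a11, Atf3 and Chac1, while Asns, Gars and Trib3 of the same list have another. For Slc36a1, a carrier known from lysosomes, the promoters were searched for TCACGTGA, a palindrome bound by TFEB, a factor that switches on lysosomal genes. Among the 6 promoters Slc36a1 alone held a match, across the start that RefSeq gives, and 304 of all 27025 genes with a promoter held this motif. Of 19 genes of lysosomal amino acid sensing, 0 held it.
Slc36a1, chr11:55204325-55204354, plus strand: gggagccagcaTCACGTGAcagggcccgga
These matches are a description of letters and not of sites in use.

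Of the glutamate carriers, Slc1a6 was lower with STEM in every library, while the groups overlapped for Slc1a3. Slc1a6 (ENSMUSG00000005357, GRCm38 chromosome 10, 78780496 to 78814765), the gene of EAAT4, a carrier best known from Purkinje cells of the cerebellum, ran from 2.05 to 3.63 CPM in the horse serum libraries, with a median of 2.91 CPM. In the STEM libraries it ran from 0.263 to 0.710 CPM, with a median of 0.386 CPM. Every STEM library lay below every horse serum library, and library 6 was within its group. The means were 2.93 ± 0.523 and 0.420 ± 0.160 CPM (SD, n = 6 each), 6.97 times lower with STEM, and the fitted log2 fold change was -2.79 (standard error 0.22). The gene rested on 29 to 56 counts per horse serum library and on 4 to 11 per STEM library. In bulk RNA, fewer cells that express a gene and less of its RNA per cell cannot be told apart.

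Slc1a3 (ENSMUSG00000005360, chromosome 15, 8634124 to 8710764) encodes EAAT1, also called GLAST, the glutamate carrier of astrocytes. Its lowest, median and highest values were 7.31, 8.15 and 24.8 CPM in horse serum, the highest being library 6 and the next 8.61 CPM. With STEM they were 6.94, 7.45 and 10.1 CPM. Apart from library 6 the groups overlapped, and that library stood at 3.12 times the mean of the other 5. The fitted log2 fold change of -0.48 (standard error 0.30) came to -0.02 (standard error 0.10) without library 6. The low myotube markers of library 6 move with this value, and their part in it was not tested. Another annotated gene, Gm37310, overlaps Slc1a3 on the same strand, and reads from the overlap cannot be told apart. Gm37310 itself was at no more than 0.922 CPM in horse serum and 0.337 CPM with STEM.

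**Figure D1:**
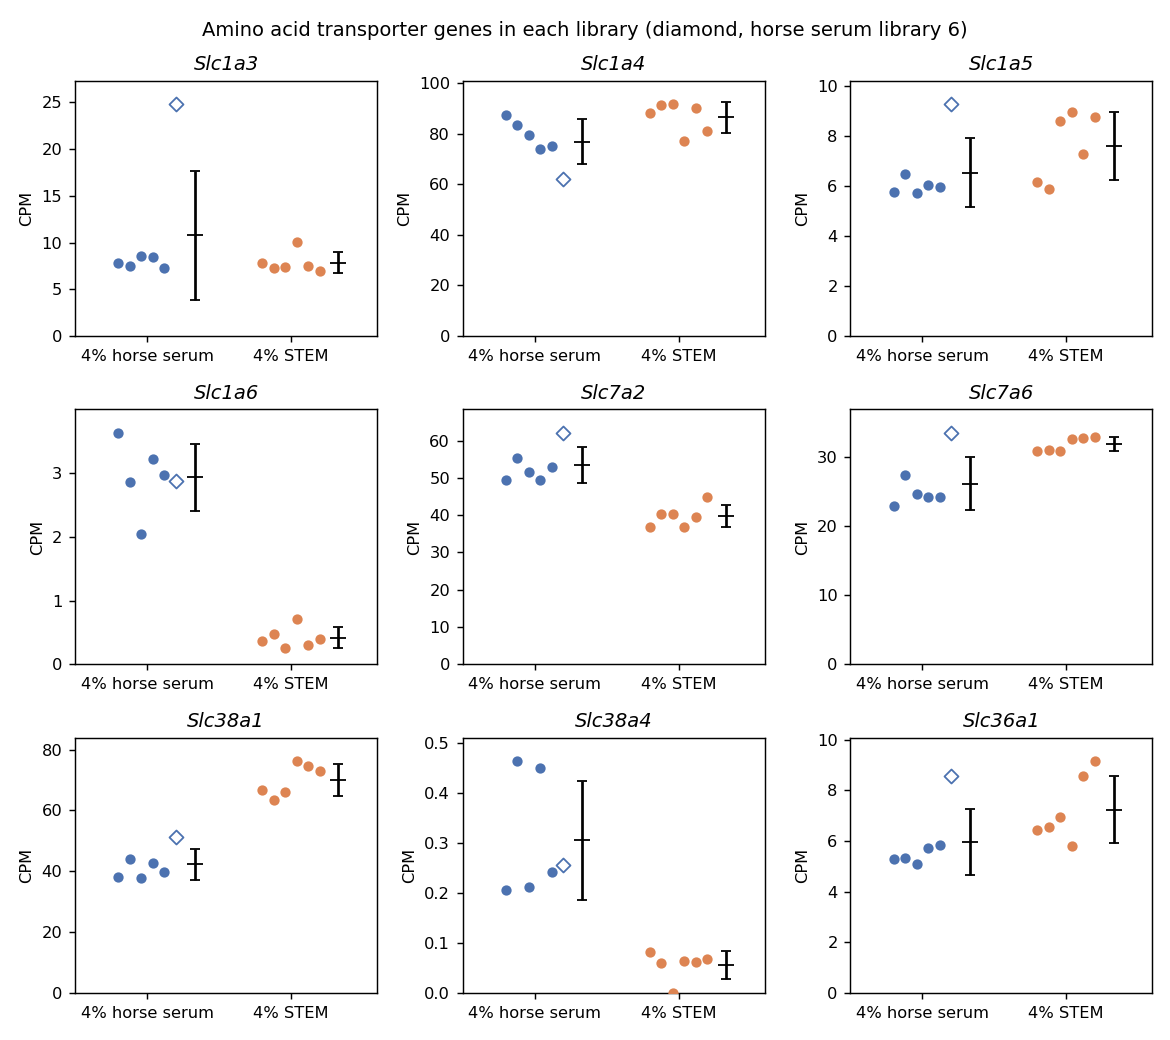
CPM of each of the 9 transporter genes (vertical axes, from 0) in the 6 horse serum and 6 STEM libraries, as points with the mean and SD of each group beside them and horse serum library 6 as an open diamond. The groups are apart for Slc1a6, Slc7a2, Slc38a1 and Slc38a4, and the diamond of Slc1a3 lies at 24.8 CPM, far above all other libraries.

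The groups overlapped for both neutral amino acid exchangers, and neither was called with all libraries. Slc1a4 (ENSMUSG00000020142, chromosome 11, 20302180 to 20332713), the alanine, serine and cysteine exchanger ASCT1, had a lowest value of 62.1, a median of 77.3 and a highest value of 87.2 CPM in horse serum. With STEM these were 77.0, 89.1 and 91.6 CPM. In 4 of the 6 STEM libraries the value lay above every horse serum library, and library 6 was the lowest of its group. The means were 76.8 ± 8.76 and 86.5 ± 6.10 CPM (SD, n = 6 each), with a log2 fold change of 0.17 (standard error 0.073), or 0.12 (standard error 0.054) without library 6.

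Slc1a5 (ENSMUSG00000001918, chromosome 7, 16781340 to 16798274) encodes ASCT2, an exchanger through which many cells take up glutamine. It ran from 5.72 to 9.28 CPM in horse serum (median 6.01) and from 5.89 to 8.97 CPM with STEM (median 7.95). Library 6 was the highest of all 12, while 4 of the 6 STEM libraries lay above horse serum libraries 1 to 5. Its log2 fold change was 0.20 (standard error 0.15) with all libraries and 0.33 (standard error 0.12) without library 6. The means of Slc1a5 were 6.54 ± 1.37 and 7.61 ± 1.37 CPM (SD, n = 6 each), from 81 to 181 counts per library.

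Of the SLC7 genes, the cationic carrier was lower and the light chain higher with STEM. Slc7a2 (ENSMUSG00000031596, chromosome 8, 40862396 to 40922308), the arginine and lysine carrier CAT2, ran from 49.4 to 62.1 CPM in horse serum, with a median of 52.3 CPM. With STEM the lowest, median and highest values were 36.7, 39.9 and 44.9 CPM. The groups did not overlap, and library 6 lay farther from the STEM libraries than the other 5 did. The log2 fold change was -0.43 (standard error 0.067), from means of 53.5 ± 4.77 and 39.8 ± 3.01 CPM (SD, n = 6 each), and -0.38 (standard error 0.055) without library 6. A lincRNA gene, Gm26584, overlaps Slc7a2 on the other strand, and no value of Gm26584 itself was at hand. The strand setting of the counting was not given in the sources used here, so reads from the 2 genes cannot be told apart.

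Slc7a6 (ENSMUSG00000031904, chromosome 8, 106168857 to 106198706) encodes y+LAT2, a light chain that exchanges cationic for neutral amino acids and sodium. It ran from 22.9 to 33.5 CPM in horse serum (median 24.4) and from 30.8 to 32.9 CPM with STEM (median 31.8). The STEM libraries lay close together, and library 6 lay above all of them while the other 5 lay below. From means of 26.1 ± 3.91 and 31.8 ± 1.01 CPM (SD, n = 6 each), the log2 fold change was 0.28 (standard error 0.082) and without library 6 it was 0.37 (standard error 0.055).

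The SLC38 genes lie on the same strand of chromosome 15, with Slc38a2 between them, 44.5 kb from Slc38a1 and 295 kb from Slc38a4. Slc38a1 (ENSMUSG00000023169, 96571418 to 96642913), the glutamine carrier SNAT1, ran from 37.7 to 51.4 CPM in horse serum, with a median of 41.2 CPM. With STEM its lowest, median and highest values were 63.4, 69.7 and 76.2 CPM. All STEM libraries exceeded all horse serum libraries, and library 6 came closest to them. The means were 42.2 ± 5.14 and 69.9 ± 5.27 CPM (SD, n = 6 each), 1.66 times higher with STEM, with a log2 fold change of 0.73 (standard error 0.076). This was the largest positive difference among the 8 of the 9 genes that were tested.

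Slc38a4 (ENSMUSG00000022464, 96994820 to 97055956) encodes SNAT4, a carrier of neutral amino acids that is imprinted in the mouse. It had 3, 6, 3, 7, 4 and 5 counts with horse serum and 2, 1, 0, 1, 1 and 1 with STEM, and it did not pass the filter on low counts. Every STEM library was below every horse serum library, at or below the floor of 3 counts. With each STEM library set at that floor, the mean of 0.305 CPM with horse serum was 1.70-fold higher. Horse serum libraries 1 and 3 were themselves at 3 counts, so this ratio is not a lower bound. Slc38a2, the gene between this pair, encodes the glutamine carrier SNAT2 and was not called, with values from 357 to 446 CPM in horse serum and from 351 to 379 CPM in STEM (log2 fold change -0.05, adjusted p = 0.488 in edgeR).

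Slc36a1 (ENSMUSG00000020261, chromosome 11, 55204350 to 55236330) encodes PAT1, a proton-coupled carrier of small neutral amino acids. Its lowest, median and highest values were 5.08, 5.52 and 8.56 CPM in horse serum and 5.81, 6.75 and 9.16 CPM with STEM. Library 6 again lay among the highest STEM libraries, and 5 of the 6 STEM libraries lay above horse serum libraries 1 to 5. The means were 5.97 ± 1.30 and 7.25 ± 1.32 CPM (SD, n = 6 each), and the log2 fold change was 0.27 (standard error 0.15) and 0.40 (standard error 0.12) without library 6. Its longest run of bases shared with another gene was 137 bases, with its neighbour Slc36a2, which was at no more than 0.181 CPM in any library.

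**Figure D2:**
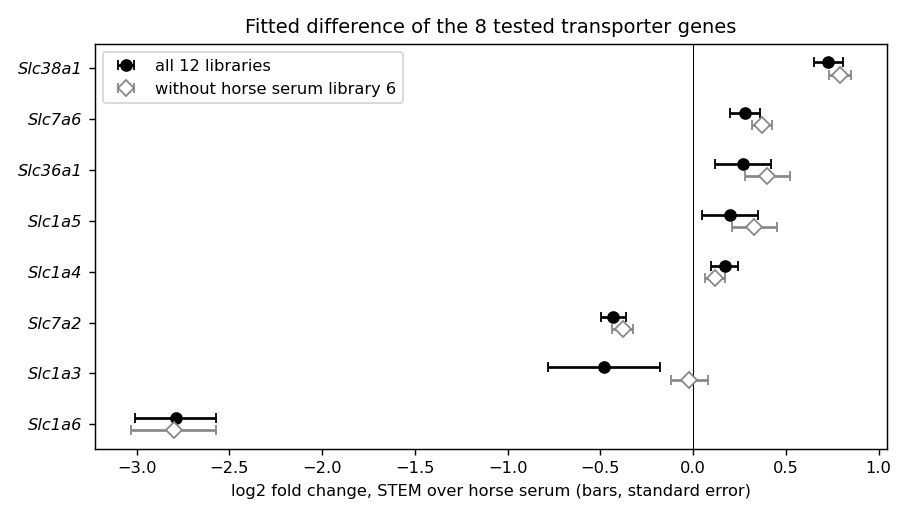
Fitted log2 fold change of STEM over horse serum (horizontal axis) with its standard error for the 8 tested transporter genes, with all 12 libraries (filled circles) and without horse serum library 6 (open diamonds). Slc1a6 lies at -2.79 and Slc38a1 at 0.73, and the value of Slc1a3 goes from -0.48 to -0.02 when library 6 is left out.

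Across the whole table, 36.4% of 14175 tested genes were called by edgeR (adjusted p not above 0.05), 18.9% higher and 17.4% lower with STEM. Of the 9 transporter genes 8 were tested and 4 were called, Slc38a1 and Slc7a6 higher and Slc1a6 and Slc7a2 lower. The genes were chosen with this comparison known, so nothing is read from that count. The median log2 fold change was 0.19 for the 8, which moved in both directions, and 0.01 for all tested genes. That median follows from the same choice, so nothing is read from it either. Without horse serum library 6, 50.8% of all tested genes were called (26.3% higher, 24.5% lower) and 6 of the 8, with Slc1a5 and Slc36a1 added on the higher side. Separate ranges in the 2 groups were found for 3 of the 8, Slc38a1 higher and Slc1a6 and Slc7a2 lower, and for 17.2% of all tested genes (8.68% higher, 8.52% lower). Without library 6 they were found for 4 of the 8, Slc7a6 being added, and for 33.3% of all tested genes.

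Library 6 was among the horse serum libraries whose values chose the genes, so its place among them is a description too. It lay outside the range of the other 5 for 7 of the 8 tested transporters, above it for 6 and below it for Slc1a4. Over all tested genes it lay outside that range for 69.0% and above it for 35.8%. Slc1a3 had the largest ratio, followed by Slc36a1 at 1.57 and Slc1a5 at 1.55 times the mean of the other 5 libraries. Slc1a6, at 0.976, was the tested transporter that library 6 left within the range. For Slc7a6 and Slc38a1, which were called higher with STEM, library 6 lay on the side of the STEM libraries, and for Slc7a2, called lower, it lay on the opposite side from them.

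**Figure D3:**
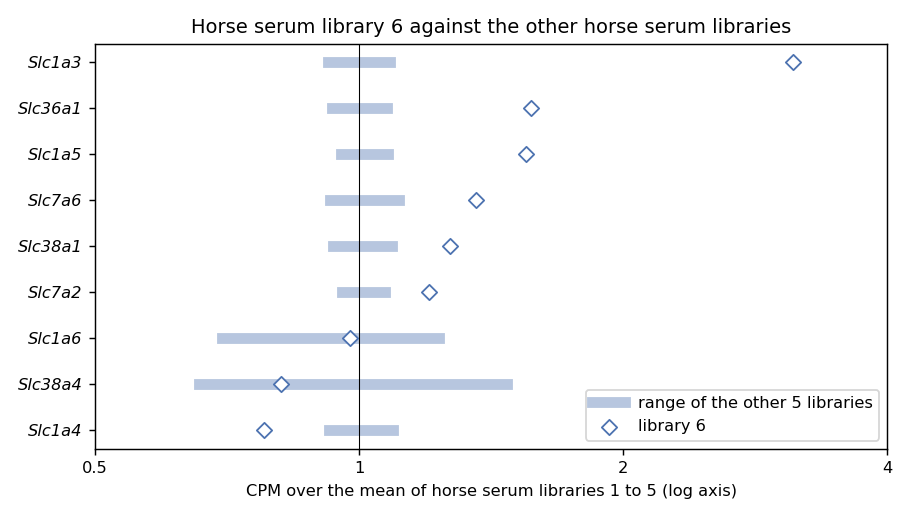
CPM of each transporter gene in horse serum library 6 (diamonds) and the range of libraries 1 to 5 (bars), over the mean of libraries 1 to 5, on a log axis. Library 6 lies at 3.12 for Slc1a3, at 0.779 for Slc1a4 and inside the bar for Slc1a6 and Slc38a4.

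Levels of different genes were compared per length, as TPM (counts over the length of all annotated exons of a gene, scaled to the same total in each library). In horse serum, Slc1a4 led the 9 genes at 41.7 ± 2.72 TPM (SD, n = 6). Slc7a2 at 12.6 ± 2.14 TPM and Slc7a6 at 12.4 ± 2.91 TPM followed, and their ranges overlapped. Slc38a1 came next at 5.29 ± 1.06 TPM, or at 10.4 TPM where the longest transcript of each gene was its length. Slc1a5 at 3.40 ± 1.03, Slc1a6 at 2.91 ± 0.489, Slc1a3 at 2.80 ± 2.13 and Slc36a1 at 2.30 ± 0.716 TPM formed a run of genes with overlapping ranges. Slc38a4 was last at 0.153 ± 0.0569 TPM.

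For 4 of the 8 neighbours in this order, all 6 horse serum libraries had the higher-ranked gene on top, with exact two-sided sign-flip permutation p = 0.0312, the smallest that 6 libraries allow. These were the steps from Slc1a4 to Slc7a2 (3.33 times), from Slc7a6 to Slc38a1 (2.33 times), from Slc38a1 to Slc1a5 (1.58 times) and from Slc36a1 to Slc38a4 (14.5 times), as ratios of geometric means. After adjustment over the 8 neighbours by the Benjamini-Hochberg method 0 passed, with an adjusted p = 0.0625 in the exact permutation test for each of these 4. In the STEM libraries the order differed. Slc7a6 was at 15.2 ± 0.517 TPM, ahead of Slc7a2 at 9.49 ± 0.587 TPM, in all 6 libraries. Slc1a6 moved to the last place but one at 0.425 ± 0.159 TPM, below Slc1a3 at 2.00 ± 0.295 TPM. There 6 of the 8 neighbours passed (adjusted p = 0.0417 each, exact sign-flip permutation test), and the pairs that did not pass were Slc7a2 with Slc38a1 and Slc36a1 with Slc1a3. Each of the 6 was at the smallest exact p, and so were the 4 in horse serum. Adjustment passes such pairs only where enough of them reach it, so 6 against 0 is not read as a firmer order with STEM. Each order was set by the same libraries that were then tested. The values of both groups also took part in the choice of the genes. All steps in both orders, among them Slc7a6 to Slc7a2 and Slc1a3 to Slc1a6 with STEM, are therefore a description.

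**Figure D4:**
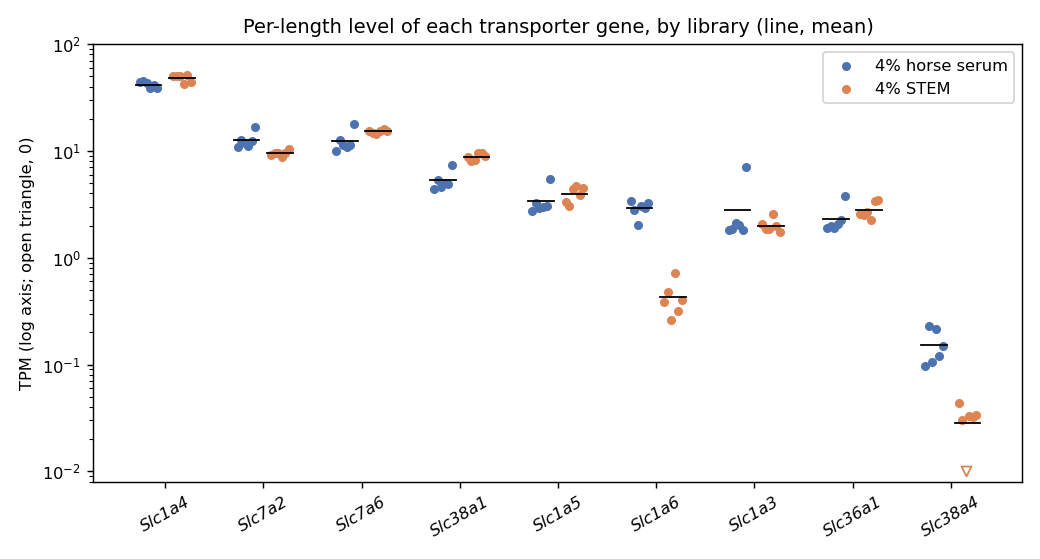
Per-length level (TPM, log axis) of the 9 transporter genes in each library, with the mean of each group as a line and a value of 0 as an open triangle. Slc1a4 is on top in both groups, and Slc1a6 drops from the run of genes near 3 TPM in horse serum to 0.425 TPM with STEM.

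Set among 53 amino acid transporter genes, which are the 9 and 44 others of the SLC1, SLC3, SLC6, SLC7, SLC16, SLC36, SLC38 and SLC43 families, Slc1a4 ranked 6 in horse serum and Slc38a4 was too low to be tested. The 5 genes above Slc1a4 were Slc6a6, Slc38a2, Slc3a2, Slc7a5 and Slc38a10. The 9 genes held a median of 13.9% of the summed TPM of the 53 in horse serum (range 12.3 to 14.9%) and of 14.1% with STEM (range 13.5 to 14.8%), so the ranges of the shares overlapped. Of the other glutamate carriers, Slc1a1 and Slc1a2 had at most 1 count in every library and Slc1a7 at most 5.

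Of the 44 other transporters 22 were tested, and 10 were called by edgeR, 7 higher and 3 lower with STEM, beside 36.4% of all tested genes. Without library 6 these were 13, with 10 higher and 3 lower, beside 50.8% of all tested genes. The largest rise was that of Slc7a11, the cystine and glutamate exchanger, from 5.70 ± 2.52 to 11.7 ± 1.85 CPM (SD, n = 6; log2 fold change 1.02, standard error 0.22, adjusted p = 0.00260 in edgeR). Slc7a5, the leucine carrier LAT1, rose from 101 ± 19.2 to 145 ± 12.6 CPM (adjusted p = 0.00139 in edgeR). Its heavy chain Slc3a2, which is also that of Slc7a6, was at 131 ± 10.1 and 149 ± 16.9 CPM and was not called (log2 fold change 0.18, adjusted p = 0.0643 in edgeR). Slc7a1, the cationic carrier CAT1, rose with a log2 fold change of 0.60 (adjusted p = 0.00518 in edgeR), opposite in sign to the -0.43 of Slc7a2. Without library 6 the log2 fold changes of Slc7a11, Slc7a5 and Slc7a1 were 1.31, 0.63 and 0.75. The groups of each overlapped with library 6 and not without it, where 33.3% of all tested genes had separate ranges.

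The other genes that rose were Slc6a7, a proline carrier (log2 fold change 0.83), Slc6a17, a neutral amino acid carrier of synaptic vesicles (0.70), Slc43a2, a leucine carrier (0.47), and Slc38a10 (0.36), with adjusted p from 1.99e-05 to 0.00507 in edgeR. Slc43a1, also a leucine carrier, Slc7a4 and Slc6a6, the taurine carrier, fell with log2 fold changes of -0.52, -0.58 and -0.31 and adjusted p from 8.16e-04 to 0.0139 in edgeR. The median log2 fold change of the 22, which moved in both directions, was 0.18. Of 6 tested mitochondrial carriers of amino acids, 1 was called, beside 36.4% of all tested genes. It was Slc25a44, a carrier of branched-chain amino acids (log2 fold change 0.27, adjusted p = 0.00644 in edgeR). Without library 6, 3 of the 6 were called, all higher, beside 50.8% of all tested genes. Slc25a22 and Slc25a38 were added, and both are named after their values were seen.

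**Figure D5:**
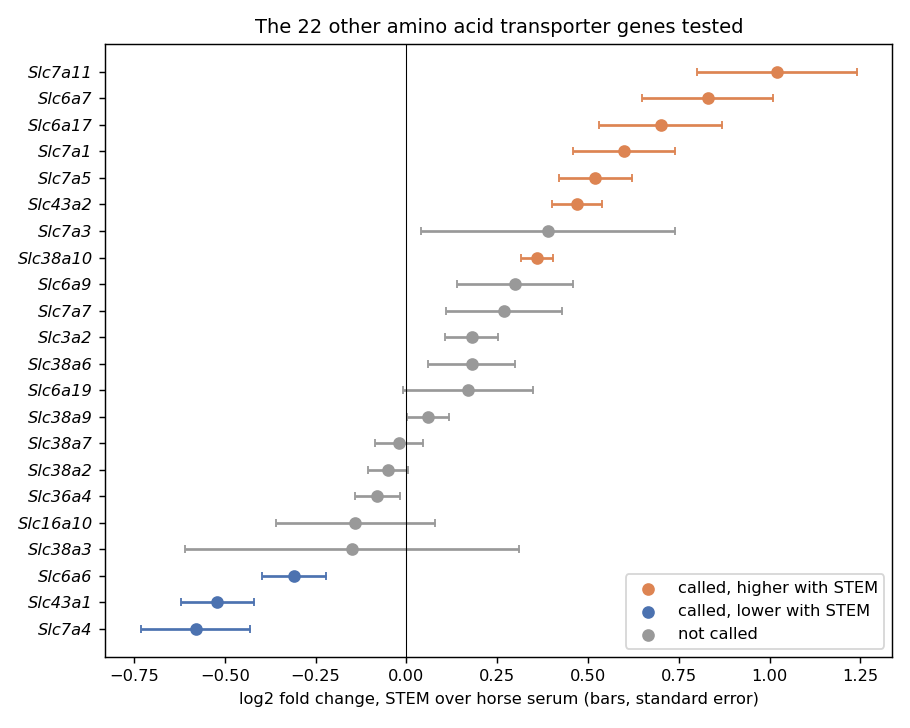
Fitted log2 fold change of STEM over horse serum (horizontal axis) with its standard error for the 22 other amino acid transporter genes tested, coloured by call. The 7 genes called higher run from Slc38a10 at 0.36 to Slc7a11 at 1.02, and the 3 called lower are Slc6a6, Slc43a1 and Slc7a4.

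Of 37 genes of the ATF4 response, 7 of them transporters counted above, 25 were called and all 25 were higher with STEM. Of all tested genes, 36.4% were called and 18.9% were called higher. The median log2 fold change of the 37 was 0.40. Atf4 itself went from 410 ± 21.0 to 526 ± 57.0 CPM (SD, n = 6; log2 fold change 0.36, adjusted p = 7.82e-04 in edgeR). Atf3, a stress-induced factor downstream of it, rose with a log2 fold change of 1.49, and Sesn2, Atf5, Chac1, Nupr1 and Gars rose by 0.66, 0.63, 0.52, 0.48 and 0.41 on the same scale (adjusted p from 3.29e-06 to 9.46e-05 in edgeR). Slc1a4, whose promoter letters are given above, was at 0.17, below the median of this list. Slc1a5, whose promoter was not searched, was also below it, at 0.20. Without library 6, 28 genes of the list were called, 27 of them higher, beside 50.8% of all tested genes called and 26.3% higher. ATF4 protein was not measured, and whether ATF4 acts on any of the 9 genes was not tested.

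Of 22 tested enzymes of glutamate, glutamine, arginine and proline metabolism, 12 were called, 9 higher and 3 lower, beside the 36.4% of all tested genes. Without library 6 these were 16, with 11 higher and 5 lower, beside 50.8% of all tested genes. Aldh18a1, Asns and Pycr1, called higher with and without library 6, were also counted in the ATF4 response. Glul, which makes glutamine from glutamate, fell from 184 ± 23.4 to 116 ± 9.98 CPM (SD, n = 6; log2 fold change -0.66, adjusted p = 3.11e-05 in edgeR). Gclc, the catalytic subunit for the first step of glutathione synthesis from glutamate and cysteine, rose from 39.3 ± 9.13 to 76.6 ± 3.97 CPM (adjusted p = 3.11e-05 in edgeR). Odc1, which makes polyamines from the arginine product ornithine, and Aldh18a1, which starts proline synthesis from glutamate, rose with log2 fold changes of 0.51 and 0.41. Of 19 tested genes of lysosomal amino acid sensing, the setting in which Slc36a1 is known, 9 were called, 6 higher and 3 lower. Without library 6 these were 11, with 7 higher and 4 lower. The shares of all tested genes beside these counts are the same 36.4% and 50.8%. Sesn2 was also counted in the ATF4 response, and Slc38a9, which was not called, among the other transporters. Sesn1 fell by 0.75 on the log2 scale (adjusted p = 4.69e-07 in edgeR) while its relative Sesn2 rose, and the GTPase gene Rraga and its anchor Lamtor1 rose by 0.31 and 0.21.

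For 7 of the tested transporters, the gene most like each among 14174 others was found by Pearson's r of log2 CPM over the 12 libraries. These are descriptions, since the libraries share the treatment and library 6. For Slc1a6 it was Mospd2 (r = 0.99), for Slc38a1 Kctd12 (0.99), for Slc7a2 Samhd1 (0.98) and for Slc7a6 BC037034 (0.98). Slc1a3 was most like Cap1 (0.97), Slc1a4 like Rassf1 (0.92) and Slc1a5 like Cd63 (0.92). With the group means removed the r of Slc1a6 with Mospd2 was 0.72 and that of Slc38a1 with Kctd12 was 0.88, lower than with the group means kept. Without library 6, the r of Slc1a3 with Cap1 was 0.84 in place of 0.97.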

How the data were processed

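The authors deposited raw read counts per Ensembl gene for 12 libraries (TruSeq Stranded Total RNA, Ribo-Zero Gold) on GRCm38, with no normalization. The submitters' processing notes name STAR 2.7.3a, featureCounts 1.6.3 and DESeq2 1.26.0; the annotation and strand setting are not given in the sources used here. Symbols, positions and lengths came from GENCODE M21, and promoters from RefSeq.

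Counts were tested with edgeR 4.0.16 (quasi-likelihood, robust, TMM, filterByExpr, 14175 genes, Benjamini-Hochberg adjustment, threshold 0.05) in R 4.3.3. DESeq2 1.42.0, limma-voom (limma 3.58.1), other scalings, other filters and leaving out each library were alternatives. On simulated counts for this comparison (14175 genes), edgeR recovered 89 of 100 genes changed 2-fold and 98 of 100 changed 4-fold, with 6.03% of its calls false. The simulated noise was drawn for each gene separately, with far fewer changed genes than were called in the data. It held no shift of a whole library such as that of library 6, so these rates need not hold for the data. Log2 CPM used a prior count of 2 and log2 TPM a pseudocount of 0.01. The floor was 3 counts per library; floors cover counting error only. Pairs of libraries within a group differed beyond counting noise (chi-square per degree of freedom 3.54 to 76.6), so all counted as separate.

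The transporters and lists were chosen with earlier results of these data known. Beside the 9, the text names Slc3a2, Slc7a5, Slc7a11, Slc7a1, Slc38a2 and Atf4, and, of the genes called in each list, those with the smallest p (10 transporters, 6 ATF4 response genes and 4 each of the other lists) and the most alike gene of 7 transporters; 1 such gene is not reported here. Genes compared for sequence or rank, and markers, are named outside this rule after their values were seen.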

Additional observations from a re-analysis of the deposited data

Results flagged for a closer look

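Values were flagged where the highest or lowest of 6 libraries stood apart from the rest of its group by Dixon's criterion, which chance meets in about 1 in 20 groups. Of 86 groups of values, 14 were flagged, and 12 of these were horse serum library 6. The groups are not independent, so their number is not read against the rate of chance. Genes most like a transporter were chosen over the same libraries, so flags of library 6 such as those of Cap1 and Cd63 partly follow from that choice. Among the 9 transporters, library 6 was the highest for Slc1a3 (24.8 CPM, the other 5 between 7.31 and 8.61), for Slc1a5 (9.28 CPM, the others between 5.72 and 6.48) and for Slc36a1 (8.56 CPM, the others between 5.08 and 5.86). In the STEM group, Slc1a3 was highest in library 10 at 10.1 CPM, with the others between 6.94 and 7.83 CPM, and Slc38a4 had its lowest value, 0 counts and 0 CPM, in library 9, where the others had 1 or 2 counts.

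Among the other genes named, library 6 was the highest horse serum library for Slc7a5 (138 CPM), Slc7a11 (10.6 CPM), Slc38a2 (446 CPM), Gclc (56.9 CPM), Odc1 (168 CPM), Cap1 (248 CPM), Cd63 (414 CPM), Samhd1 (31.6 CPM) and Kctd12 (1.69 CPM). No explanation of library 6 was tested.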

How the results depend on the processing

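The number of genes called lay between 4459 and 7245 with each library left out, the highest without horse serum library 6, and the count was 4 to 6 for the 9 transporters, 10 to 13 for the other transporters and 22 to 28 for the ATF4 response. Over the other scalings, filters and tools 4648 to 5338 genes were called, 10 of the other transporters in each and 21 to 25 of the ATF4 response, the fewest with no filter. Of the 9 transporters, 3 of 7 tested were called with at least 10 counts in every library, where Slc1a6 was not tested, 5 of 9 with no filter, with Slc38a4 lower, 5 of 8 on total counts and 4 of 8 otherwise. Without library 6, 1 gene of the ATF4 response was called lower. Over the same alternatives the log2 fold change ran from -2.98 to -2.70 for Slc1a6, -0.57 to -0.02 for Slc1a3, 0.12 to 0.21 for Slc1a4, 0.15 to 0.33 for Slc1a5, -0.47 to -0.38 for Slc7a2, 0.25 to 0.37 for Slc7a6, 0.69 to 0.79 for Slc38a1 and 0.19 to 0.40 for Slc36a1. Of 646 refits of 34 other named genes, 643 kept their side of the threshold, and Slc3a2 (0.20, adjusted p = 0.0461 in edgeR) and Cd63 were called without library 6 and Slc3a2 without STEM library 12. With the longest transcript as gene length, Slc38a1 was at 10.4 TPM in horse serum. Its length was then 7266 bases, in place of 17236 bases for all its exons. The order by mean changed, with Slc7a6 ahead of Slc7a2 and Slc1a3 ahead of Slc1a5. Slc7a2 was 1.17 times as high as Slc38a1 by geometric means, and their ranges overlapped. With this length 5 of 8 neighbours in the order of levels reached the smallest exact p and passed after adjustment, where 0 had passed. With 5 libraries the smallest exact p is 0.0625. No paired analysis was possible because the library numbers of the groups are all different. Depth limits Slc38a4 and, with STEM, Slc1a6.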
